A study of Salmo salar with 30 samples.

Results

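The immune recognition and signalling genes described here are 48 probes of a salmonid microarray, of 21117 probes measured. A probe was included when the study's lists of differentially transcribed genes gave it a name that contains complement, interferon, immunoglobulin, chemokine, interleukin, histocompatibility, lectin, toll-like or t-cell. The lists used were the one over all families and the one for family X11. Probe C211R110, names with ubiquitin and probes that the study lists under heart development or cell cycle were left out. The list over all families gave 14 members, 8 of which were also listed for X11 and 1 of those, C260R032, for X22 as well. The other 34 members were listed for X11 alone. The members were therefore chosen by the measured difference between enriched and unenriched juveniles over all families or in X11, and those differences are given below as a description, with no test. By the word that matched, 11 probes carry interferon, 8 chemokine, 8 complement, 7 t-cell, 5 immunoglobulin, 4 interleukin, 3 lectin and 2 histocompatibility, and no probe carried toll-like. For 8 probes the match was only to the letters of a name outside immune recognition, such as the DNA repair factor XPA (C060R027 and C147R080, "complementation" and "complementing") and the nogo receptor-interacting protein LINGO3 (C161R036), and they are included in the counts unless the text says otherwise.

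The complement system is a cascade of plasma proteases that coats foreign particles, with factor D and C4 as early components, and C1q receptors on phagocytes and endothelium bind coated material. T cells recognise antigen through the T-cell receptor, which signals through CD3 chains and is assisted by CD4, while antigen-presenting cells display peptides on class II molecules whose loading needs the class II gamma (invariant) chain and the lysosomal thiol reductase GILT. Chemokines direct leukocyte migration, interferons induce antiviral effectors such as Mx and the guanylate-binding GTPases, and interleukin receptors with their kinases relay cytokine signals. Salmon at emergence have innate immunity and are still building their adaptive immune tissues.

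Each array held the RNA of 1 Atlantic salmon juvenile, sampled at emergence (judged on the enriched juveniles), from the whole head cut off behind the operculum, which includes brain, eyes and heart. Juveniles of 3 full-sib families were reared with gravel (enriched) or without gravel (unenriched), with 5 juveniles per family and environment, and these 6 groups are X11, X22 and X35 enriched and X11, X22 and X35 unenriched. All dams were wild, the sire of X11 was wild and the sires of X22 and X35 were farmed. There was 1 tank per family and environment, so the p-values measure the spread between juveniles of a tank and not between tanks. The Cy5 channel held the juvenile and the Cy3 channel a pool of all juveniles on every one of the 30 arrays, and the dyes were never swapped. Values are log2 ratios of Cy5 to Cy3, so 0 is the level of the pool, and a ratio of one probe cannot be set against that of another. The heads are mixed tissue, in which fewer cells of a type and less RNA per cell cannot be told apart.

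Cy5 passed the detection limit (background mean + 2 SD) on 28.2 to 42.9% of the spots of an array. Of the 48 members, 12 were above that limit on all 30 arrays, 34 on at least 15 arrays (50% of them) and 6 on 3 arrays or fewer. The authors had imputed 25 of the 1440 member values, in 9 members. The number of arrays limits the precision. The lowest correlation between 2 arrays was -0.39, and the direction of the ratio was kept because the methods state the dyes. The 30 arrays lay on 8 slides, and only slide 8 held juveniles of both X22 and X35, so family, tank and slide could hardly be told apart. The environments of X11 shared only slide 4, with 1 enriched and 3 unenriched arrays. Of 9 probes named after heart muscle, 9 had a lower mean in enriched than in unenriched juveniles over all families and in X11. They were taken by name from the study's lists of environment differences, which favoured this.

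Most of the immune members were lower in enriched X11 juveniles. Over the 48 members, 40 had a lower and 8 a higher mean in enriched than in unenriched X11 juveniles, with a median difference of -0.71 on the log2 scale. In 25 members the 5 enriched juveniles did not overlap the 5 unenriched ones, 18 all lower and 7 all higher, while this held for 11.2% of all probes. These differences chose the members and nothing is read from them. For orientation, limma called 13.3% of all 21117 probes in X11 and 0.616% over all families at an FDR of 5%. The smallest absolute X11 difference among the 42 members listed for X11 was -0.40 (IRAK3, C241R069) and the largest was -1.55 (immunoglobulin mu heavy chain, C096R165).

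**Figure D1:**
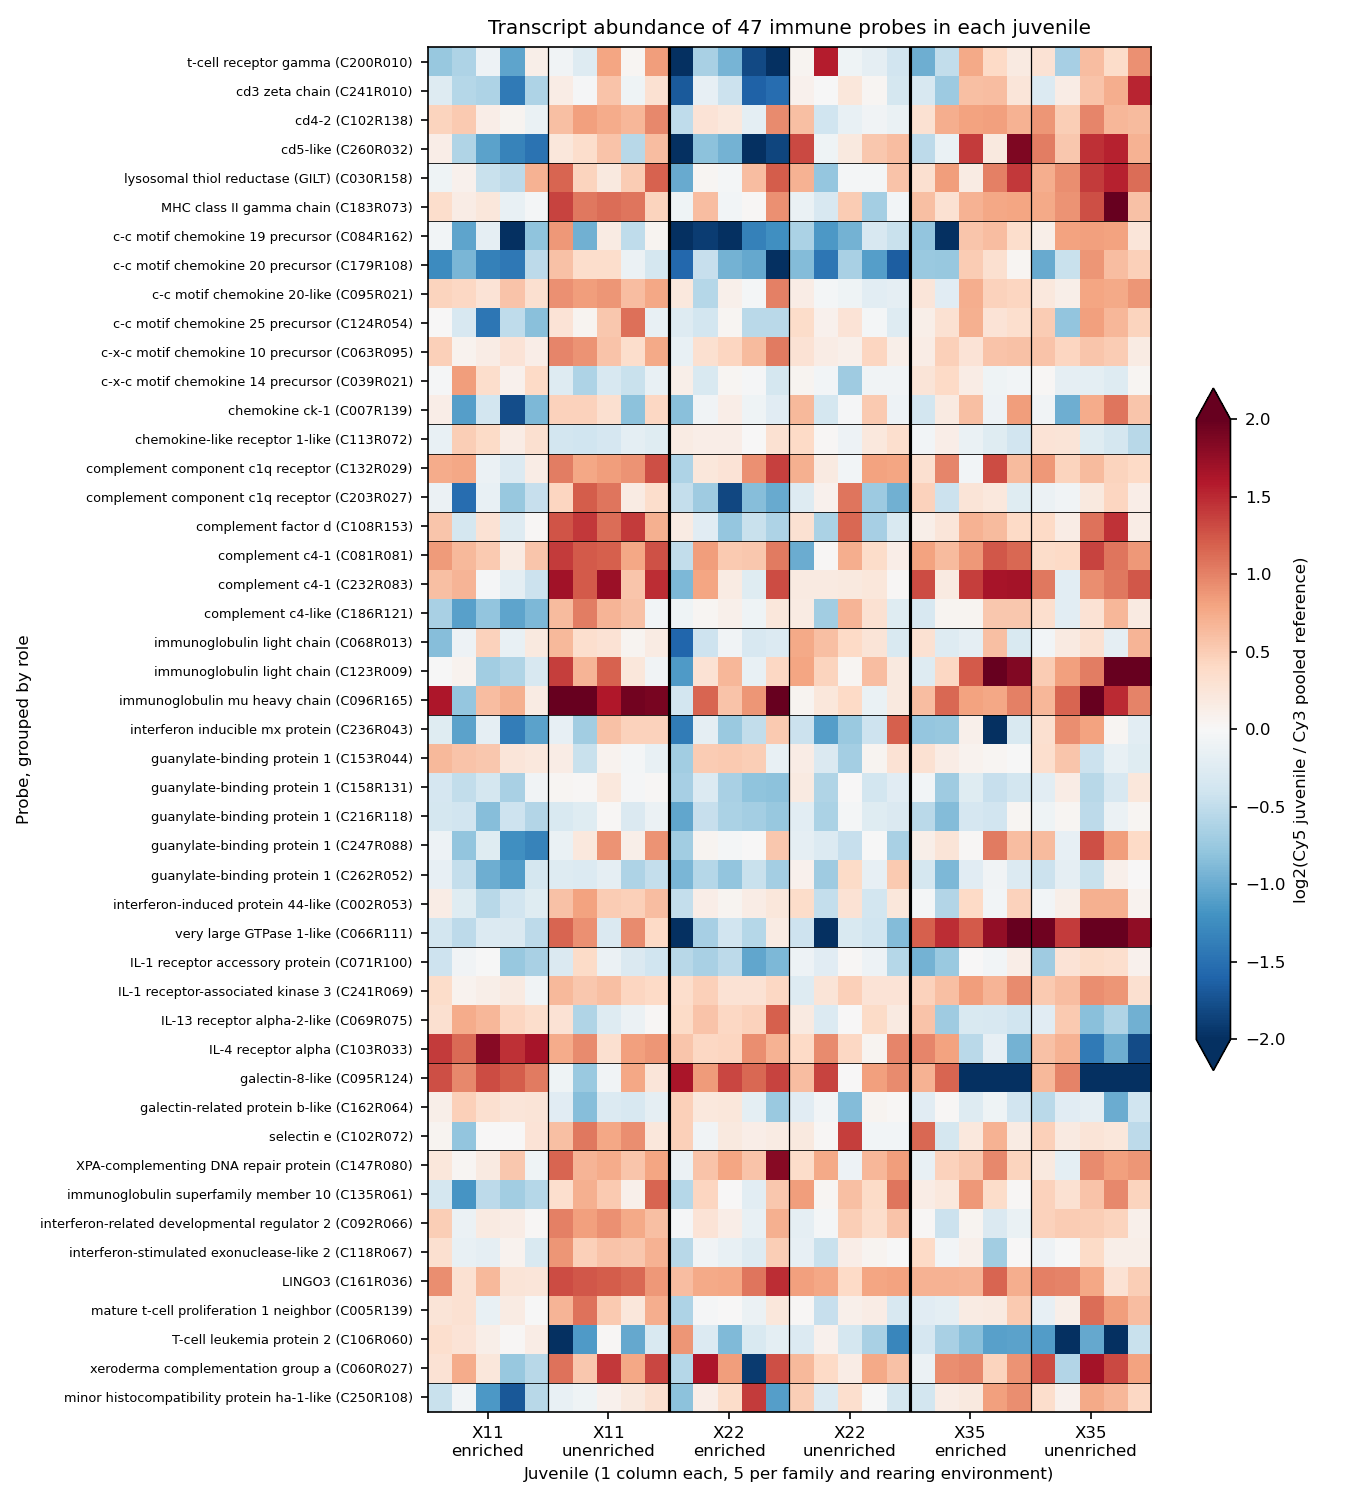
Log2 ratio (Cy5 over Cy3) of 47 members in each of the 30 juveniles, with members in rows by role and juveniles in columns by family, enriched left of unenriched, and a colour scale that ends at -2 and 2. In X11 most rows are lower in the enriched juveniles.

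Complement members were lower in enriched X11 juveniles at 6 of 6 immune probes. The 2 complement regulator probes that the study lists outside the members went the other way. They averaged 0.40 ± 0.11 in enriched and -0.56 ± 0.51 in unenriched X11 juveniles (SD, n = 5 each). The C4-like probe C186R121 had -0.64, -1.08, -0.80, -1.05 and -0.90 in the enriched X11 juveniles, against 0.63, 1.02, 0.67, 0.58 and -0.06 in the unenriched ones. All 5 enriched juveniles were below all 5 unenriched ones. The means were -0.89 ± 0.18 in enriched and 0.57 ± 0.39 in unenriched X11 juveniles (SD, n = 5 each), a difference of -1.46. In X22 the same probe averaged 0.04 ± 0.13 in enriched and 0.04 ± 0.53 in unenriched juveniles, and in X35 0.18 ± 0.37 in enriched and 0.25 ± 0.31 in unenriched juveniles (SD, n = 5 each). The means of X22 and X35 lay between those of enriched and unenriched X11 juveniles in both environments. Complement factor D (C108R153), the protease that starts the alternative pathway, had 0.55, -0.35, 0.29, -0.26 and 0.03 in enriched X11 juveniles, against 1.25, 1.41, 1.12, 1.39 and 0.71 in unenriched ones. These also did not overlap. The C4-1 probe C232R083 differed by -1.20 in X11 and the C4-1 probe C081R081 by -0.62. The 2 probes named C1q receptor differed by -1.25 (C203R027) and -0.71 (C132R029), of which C203R027 was above the Cy5 limit on none of the enriched and on 2 of the unenriched X11 arrays.

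Immunoglobulin chains, which B cells make, were lower in enriched X11 juveniles at 3 of 3 members. The 2 B-cell and immunoglobulin probes that the study lists outside the members hardly differed. They averaged 0.27 ± 0.09 in enriched and 0.26 ± 0.23 in unenriched X11 juveniles (SD, n = 5 each). The mu heavy chain (C096R165), the heavy chain of IgM, had 1.62, -0.78, 0.62, 0.71 and 0.17 in enriched X11 juveniles, against 2.42, 2.24, 1.61, 1.93 and 1.90 in unenriched ones. The groups overlapped only at the highest enriched juvenile and the lowest unenriched one. In X22 the values were -0.36, 1.16, 0.57, 0.89 and 2.94 in enriched juveniles, against 0.05, 0.23, 0.40, -0.14 and 0.19 in unenriched ones. Here 4 of 5 enriched juveniles were above every unenriched one and the remaining one was below them all. The light chain C123R009 differed by -0.99 in X11, with Cy5 above the limit on 0 of 5 enriched and 1 of 5 unenriched X11 arrays. For the light chain C068R013 the X11 mean was also lower. Its Cy5 was above the limit on 1 of the 30 arrays and on 0 of 5 enriched and 0 of 5 unenriched X11 arrays, so no size is given.

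Antigen presentation and T-cell members had the same direction. The class II gamma chain (C183R073) had 0.35, 0.15, 0.23, -0.15 and -0.04 in enriched X11 juveniles, against 1.35, 1.06, 1.12, 1.07 and 0.45 in unenriched ones, without overlap. The co-receptor CD4-2 (C102R138) had 0.45, 0.52, 0.13, 0.05 and -0.14 in enriched X11 juveniles, against 0.60, 0.82, 0.73, 0.67 and 0.97 in unenriched ones, again without overlap. GILT (C030R158) differed by -0.75. The CD3 zeta chain (C241R010), a signalling chain of the T-cell receptor, differed by -0.88. Outside the members, 7 listed antigen presentation probes averaged 0.006 ± 0.25 in enriched and -0.23 ± 0.75 in unenriched X11 juveniles (SD, n = 5 each). The 9 listed T-cell signalling probes outside the members averaged -0.52 ± 0.34 in enriched and 0.46 ± 0.13 in unenriched ones (SD, n = 5 each).

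Chemokines split by gene in X11. The ccl20 precursor (C179R108), a chemokine that attracts lymphocytes and dendritic cells in mammals, had -1.25, -0.92, -1.34, -1.43 and -0.52 in enriched X11 juveniles, against 0.59, 0.35, 0.36, -0.12 and -0.35 in unenriched ones. The groups did not overlap, and Cy5 was above the limit on 0 of 5 enriched and 4 of 5 unenriched arrays. The cxcl14 precursor (C039R021) went the other way, with -0.02, 0.83, 0.35, 0.09 and 0.39 in enriched X11 juveniles, against -0.26, -0.61, -0.32, -0.44 and -0.16 in unenriched ones. It was the single chemokine of 7 with a higher mean in the enriched juveniles, and its groups did not overlap either. The chemokine-like receptor 1 probe (C113R072) was also higher, by 0.55.

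Among interferon-induced genes 7 of 8 probes were lower in enriched X11 juveniles. IFI44-like (C002R053) had 0.15, -0.24, -0.56, -0.38 and -0.24 in enriched X11 juveniles, against 0.58, 0.81, 0.51, 0.47 and 0.62 in unenriched ones, without overlap. The very large GTPase 1-like probe (C066R111), one of the giant interferon-induced GTPases, differed by -1.02, although its Cy5 signal was above the limit on 0 of 5 enriched and 1 of 5 unenriched X11 arrays. The 5 probes named guanylate-binding protein 1 disagreed. C153R044 was higher by 0.53, with Cy5 above the limit on 5 of 5 enriched and 0 of 5 unenriched X11 arrays. C262R052, C216R118 and C158R131 differed by -0.26, -0.33 and -0.43. For C247R088 the mean was also lower, but Cy5 was above the limit on 0 of 5 enriched and 0 of 5 unenriched X11 arrays, so no size is given. They may report different genes of the family.

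The members with a higher mean in enriched X11 juveniles included lectins and cytokine receptors. The galectin-8-like probe (C095R124), a sugar-binding lectin, had 1.28, 0.96, 1.31, 1.21 and 1.04 in enriched X11 juveniles, against -0.09, -0.74, -0.06, 0.77 and 0.24 in unenriched ones. The interleukin-4 receptor alpha probe (C103R033) had 1.41, 1.13, 1.82, 1.46 and 1.64 in enriched X11 juveniles, against 0.75, 0.95, 0.33, 0.83 and 0.88 in unenriched ones. Neither overlapped between the environments. The interleukin-13 receptor alpha 2-like probe (C069R075), in mammals a decoy receptor for interleukin-13, differed by 0.64 and the galectin-related protein B-like probe (C162R064) by 0.65. Selectin E (C102R072), an endothelial adhesion lectin, was lower, by -0.81.

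Heart muscle transcripts differed between the same X11 groups. The marker probes of all tissues were taken by name from the study's lists of environment differences, which favoured such differences, so these are a description. The mean of the 9 heart muscle probes was -1.48 to -1.05 in enriched X11 juveniles and -0.87 to 0.88 in unenriched ones, with no overlap. The mean of the 4 eye lens probes was -0.37 to 0.31 in enriched and 0.37 to 0.96 in unenriched X11 juveniles, that of the 7 neuronal probes was 0.11 to 0.45 in enriched and -0.06 to 0.19 in unenriched ones, and that of the 3 red blood cell probes was 0.05 to 0.38 in enriched and -0.10 to 0.73 in unenriched ones. The mean of all 48 members was -0.32 to 0.14 in enriched and 0.32 to 0.53 in unenriched X11 juveniles. The part of tissue proportions in the member differences was not tested.

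**Figure D2:**
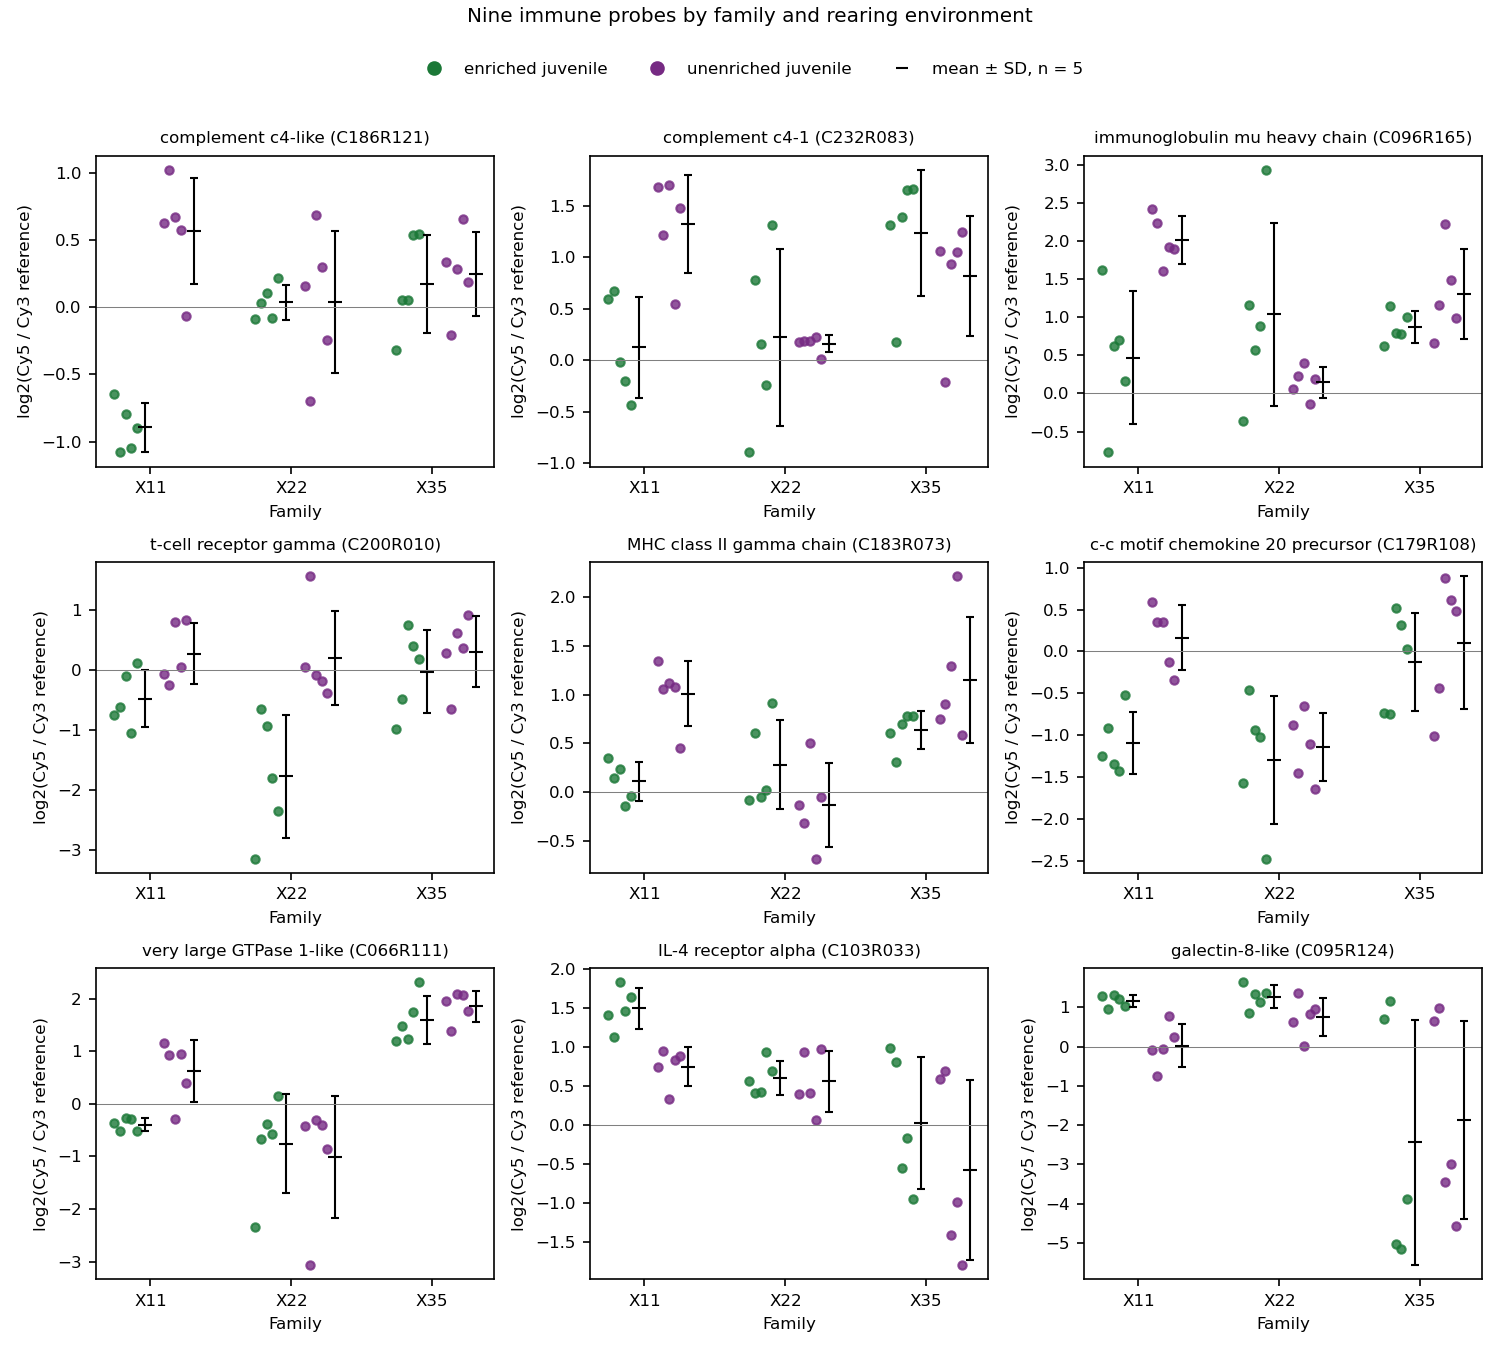
Log2 ratio of 9 members in each juvenile (points) with the group mean and SD (bars), n = 5 per group, by family on the horizontal axis, enriched left of unenriched. The X11 groups stand apart for the C4-like probe, and 6 of the 10 X35 juveniles are low for galectin-8-like.

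The 14 members of the list over all families were all lower in enriched juveniles over all families, with a median difference of -0.59, and this chose them. Their means were lower in each family taken alone, with a median difference of -0.76 for X11, of -0.62 for X22 and of -0.31 for X35. The choice used these same juveniles, which favoured this, so the values by family that follow are a description. The T-cell receptor gamma probe (C200R010) had -3.15, -0.65, -0.94, -1.80 and -2.35 in enriched X22 juveniles, against 0.06, 1.56, -0.09, -0.18 and -0.39 in unenriched ones. All enriched X22 juveniles were below all unenriched ones. The CD5-like probe (C260R032) and the ccl19 precursor (C084R162) had the same order, but Cy5 was above the limit on 0 of 10 X22 arrays for both. In X35 the same T-cell receptor probe had -0.98, -0.49, 0.75, 0.40 and 0.18 in enriched juveniles, against 0.29, -0.66, 0.62, 0.36 and 0.91 in unenriched ones, which overlapped. The Mx probe (C236R043), an interferon-induced GTPase, differed by -1.19 for X35 and by -0.16 for X22. Its Cy5 was above the limit on 4 of 30 arrays, all of unenriched X22 and X35 juveniles. The mean of the Mx probe was also lower for X11, but no X11 array was above the limit, so no size is given.

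Whether the environment difference of these genes varied among families was tested with the interaction of family and environment (limma F-test on all 30 arrays, adjusted over all probes). Of the 14 members listed over all families, 0 passed, against 0.0474% of all probes, and 6 had an unadjusted p under 0.05, against 15.4% of all probes. For the 8 that were also listed for X11 this test partly repeats the choice. Of the 6 listed over all families alone, 0 passed and 1 had an unadjusted p under 0.05, the T-cell receptor gamma probe (adjusted p = 0.27). Setting aside the members listed for X11 leaves those with smaller X11 differences, so nothing is read from the count for the 6.

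The environment difference was then measured in the families that the X11 list did not use. The list for X11 rests on X11 arrays only, so its 42 members were taken whole, with the 8 that are also in the list over all families, and this set was formed after values had been seen. In X22 and X35 together 0 of the 42 were called by limma, against 0.0189% of all probes, and 5 had an unadjusted p under 0.05, all lower in enriched juveniles, against 9.61% of all probes. The re-implemented SAM test called 0 of the 42 and 0.0284% of all probes. The differences were higher for 17 and lower for 25, with a median of -0.03 against -0.0007 for all probes. The direction of the X11 difference was shared by 29 of 42, against 56.9% of all probes. The standard errors were 0.10 to 0.81, and a p above the threshold does not show that the environments had the same level. All 5 with an unadjusted p under 0.05 are also in the list over all families, and 0 of the 34 listed for X11 alone had one. The list over all families used X22 and X35, so setting its members aside leaves those with small differences there, and nothing is read from the count for the 34. Of the 14 members in the list over all families 11 had an unadjusted p under 0.05, which the choice had favoured, and of all 48 members 11 had one.

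Of the 42, the lowest p were those of T-cell genes in both lists, which the use of X22 and X35 in the list over all families favoured. The CD3 zeta chain had -1.69, -0.17, -0.43, -1.62 and -1.53 in enriched X22 juveniles, against 0.08, -0.006, 0.22, 0.04 and -0.35 in unenriched ones. The groups overlapped, and the difference in X22 was -1.08 ± 0.30 (SE, adjusted p = 0.38). In X22 and X35 together it was -0.77 ± 0.25 (SE, adjusted p = 0.36). The CD5-like probe had the lowest unadjusted p of the 42, with no size given for X22 because Cy5 was not above the limit on any X22 array (adjusted p = 0.26 in X22 and X35 together).

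Within X22 alone 0 of the 42 were called by limma, against 0.00474% of all probes. SAM called 1 of the 42, the CD5-like probe, and 0.104% of all probes. The study's own list for X22, made from the same arrays, also holds this probe, so that call is no separate evidence. At an unadjusted p under 0.05 there were 7, against 10.4% of all probes. Of these 7, 5 are also in the list over all families. The other 2 were the ccl25 precursor (C124R054), in mammals a chemokine of thymus and gut, and the interleukin-13 receptor alpha 2-like probe (C069R075). Ccl25 had -0.26, -0.37, 0.03, -0.54 and -0.54 in enriched X22 juveniles, against 0.37, 0.08, 0.27, -0.04 and -0.26 in unenriched ones. These overlapped, and the difference was -0.42 ± 0.17 (SE, adjusted p = 0.44). Interleukin-13 receptor alpha 2-like had 0.38, 0.57, 0.42, 0.46 and 1.20 in enriched X22 juveniles, against 0.18, -0.27, 0.01, 0.38 and 0.18 in unenriched ones. The lowest enriched juvenile lay beside the highest unenriched one, and the difference was 0.51 ± 0.19 (SE, adjusted p = 0.42). Both had the direction of X11, as did 27 of the 42, against 54.1% of all probes. The immunoglobulin mu heavy chain had the opposite direction in X22, by 0.89 ± 0.45 (SE, adjusted p = 0.51).

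Within X35 alone 0 of the 42 were called by limma and 2 had an unadjusted p under 0.05, against 0% and 4.95% of all probes. These 2 were the Mx probe and interferon-related developmental regulator 2 (C092R066), both in the list over all families as well. SAM called 0 of the 42 and 0.0237% of all probes. The direction of the X11 difference was shared by 33 of 42, against 57.4% of all probes. The enriched and unenriched juveniles did not overlap for 1 of the 42 in X22 (CD5-like), against 2.22% of all probes, and for 1 of the 42 in X35 (C092R066), against 1.1% of all probes. Heart muscle probes were lower in enriched juveniles at 9 of 9 in X22 and at 9 of 9 in X35 as well, with median differences of -0.54 and -0.47. These probes were also taken from the study's lists, which favoured this.

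**Figure D3:**
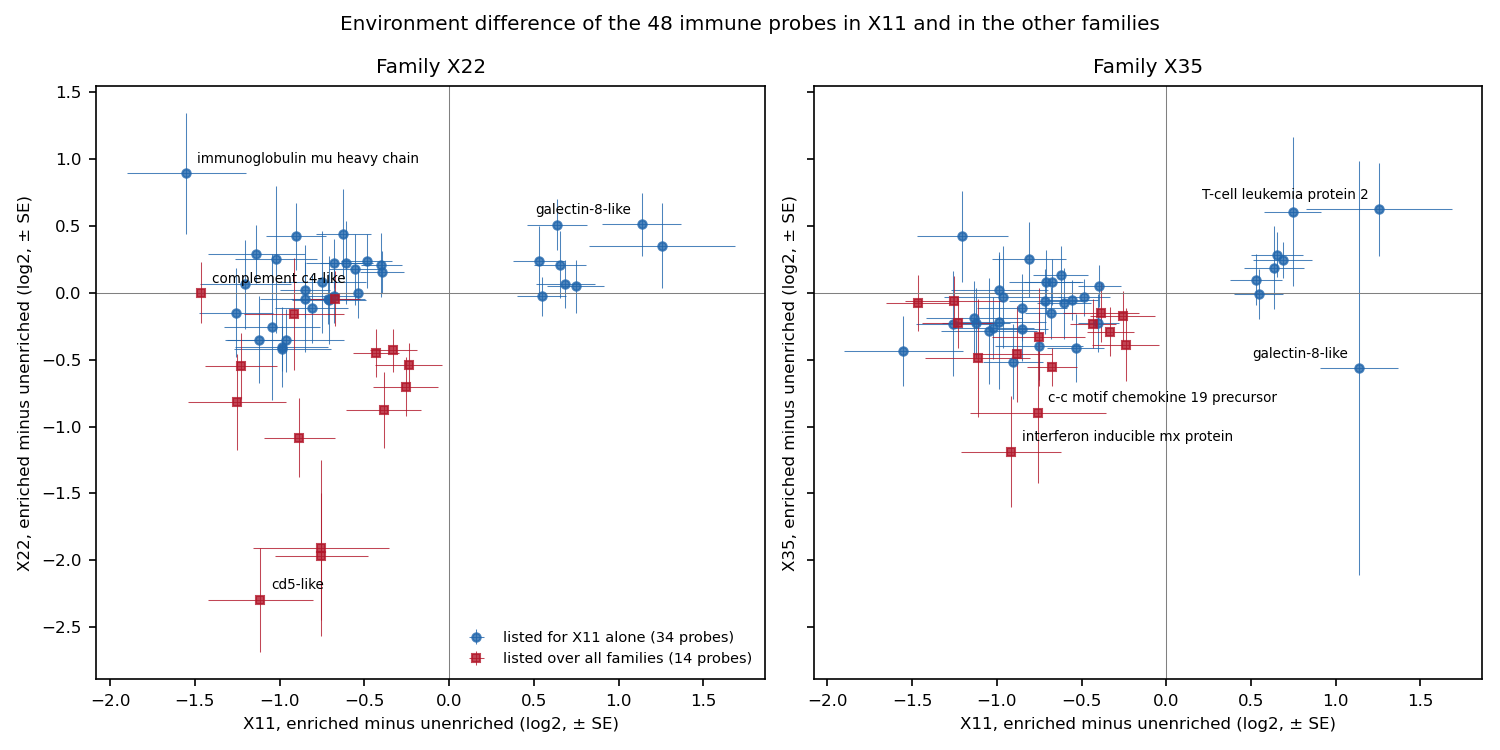
Difference of the means (enriched minus unenriched, log2, with SE bars) in X22 (left panel) and X35 (right panel) against that in X11, for the 34 members listed for X11 alone (circles) and the 14 listed over all families (squares). The 34 members scatter around 0 on the vertical axes and the 14 lie below 0 in both panels, a split that the lists themselves favour, since the list over all families used X22 and X35.

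Of the 2 family comparisons fitted, that of X22 with X35 called more members. X11 was not compared with X22 alone or with X35 alone. Most members were lower in X22, among them genes of the T-cell receptor complex, antigen presentation, chemokines and complement. In limma, on the means over both environments, 17 of 48 members were called, against 11.4% of all probes. Of these, 14 were lower in X22, against 4.76% of all probes, and 3 were higher, against 6.67%. Lower means in X22 were seen for 39 of 48 members, with a median difference of -0.31 against -0.0043 for all probes. At an unadjusted p under 0.05 there were 26 members, against 28.7% of all probes. Without the 8 name matches outside immune recognition, 16 of 40 were called, 14 lower and 2 higher, and 35 of 40 had a lower mean, with a median of -0.39. The family means over both environments do not use the difference that chose the members. On leaving out 1 juvenile at a time, 9 of the 17 were called in each of the 20 fits. The number of members called was 9 to 12 without 1 of the X35 replicates 3, 4 and 5 of either environment. In those fits 1382 to 1793 of all 21117 probes were called. The member count was 19 to 22 without 1 of the X35 replicates 1 and 2, where 2730 to 3607 of all probes were called. With all juveniles 2414 of all probes were called, so the count over all probes moved in the same direction. A split of X35 along these replicates is described below, and its part in the calls was not tested. The 17 called members had the same direction in the enriched and in the unenriched juveniles, 14 lower and 3 higher in both. The calls rest on the mean of these 2 differences, which favoured this. Of the 31 members not called, 17 were lower and 4 higher in both. No member passed the test with slide as a fixed term, against 32 of 21117 probes, although 17 of 17 kept their direction (adjusted p = 0.17 to 0.75). Almost every slide held only 1 of these families, so slide and family could hardly be told apart in that fit. The cause of the lost calls was not tested. That fit used the same arrays that gave the calls, so the kept direction is no separate evidence.

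**Figure D4:**
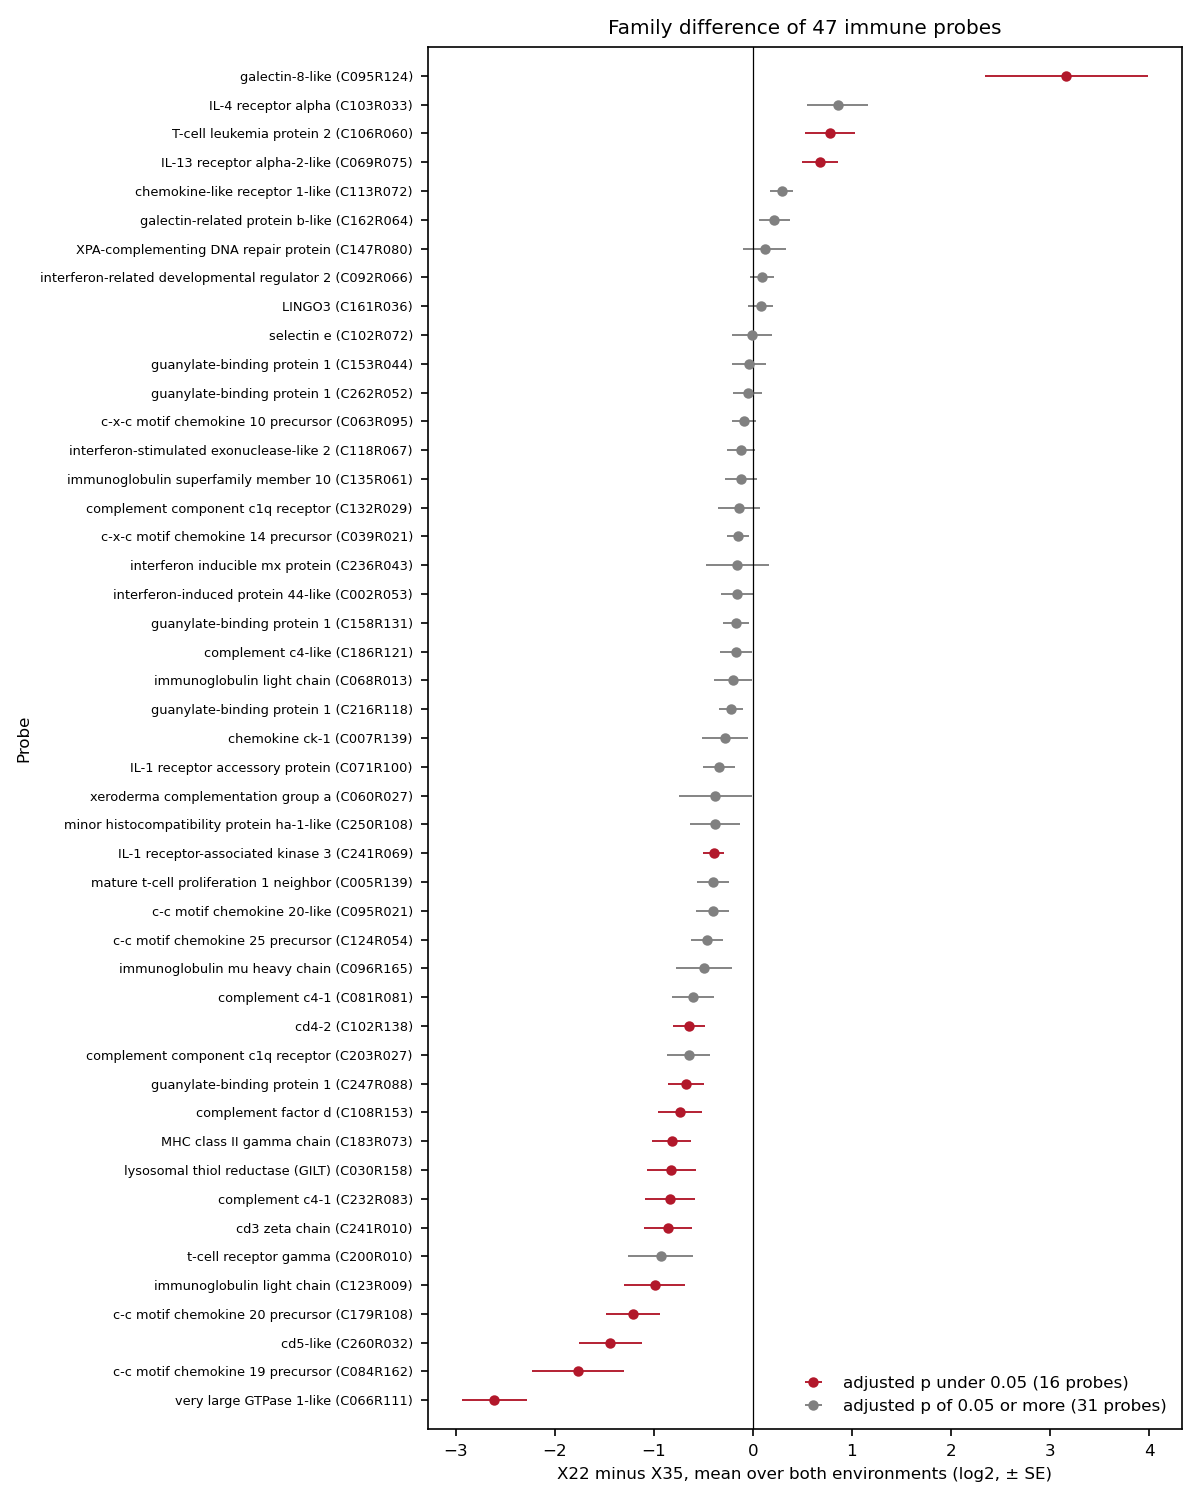
Difference of the family means (X22 minus X35, log2, with SE bars) for 47 members, ordered by size, with called members in red and the others in grey. Of the 16 called members drawn 13 lie below 0 and 3 above.

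The interferon-induced very large GTPase 1-like probe (C066R111) separated the families most clearly. Its lowest, median and highest values were -3.06, -0.49 and 0.16 in X22, against 1.19, 1.76 and 2.31 in X35. It was the single member for which no X22 juvenile reached any X35 juvenile, which held for 0.355% of all probes. The difference was -2.61 ± 0.33 (SE, adjusted p = 0.000146), and Cy5 was above the limit on 0 of 10 X22 and 9 of 10 X35 arrays. Where every array of a family was below the limit the fold is a bound, and here the signal was at least 4.08-fold lower in X22. For such a bound each dim array took whichever was higher, its own normalized Cy5 signal or the lowest one that passed the limit, and without swapped dyes it is open to dye bias. X11 averaged -0.39 ± 0.12 in enriched and 0.63 ± 0.59 in unenriched juveniles (SD, n = 5 each), between the means of X22 and X35. Of the other interferon-induced probes only the guanylate-binding protein 1 probe C247R088 was called, at least 1.40-fold lower in X22 (adjusted p = 0.0244), above the limit on 2 of 10 X35 arrays and with 4 of 20 values imputed. All 8 interferon-induced probes had a lower mean in X22.

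Of the 4 T-cell receptor and co-receptor probes 3 were called lower in X22. The CD3 zeta chain had -1.69, -0.26 and 0.22 as lowest, median and highest in X22, against -0.73, 0.41 and 1.53 in X35. The families overlapped widely, and the difference was -0.86 ± 0.25 (SE, adjusted p = 0.032), a call lost in 10 of the 20 fits without 1 juvenile. CD4-2 had -0.51, -0.10 and 0.94 in X22, against 0.31, 0.71 and 0.97 in X35. Most X22 juveniles were below the lowest X35 one, with a difference of -0.64 ± 0.16 (SE, adjusted p = 0.0166). The CD5-like probe, a regulator of T-cell receptor signalling in mammals, was at least 1.67-fold lower in X22 (adjusted p = 0.00945), but Cy5 was above the limit on 0 of 10 X22 and only 1 of 10 X35 arrays, and 3 of 20 values were imputed. The T-cell receptor gamma probe differed by -0.93 ± 0.33 and was not called (SE, adjusted p = 0.066). Its X22 juveniles spanned -3.15 to 1.56 and its X35 juveniles -0.98 to 0.91.

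Both antigen presentation members were called. The class II gamma chain had -0.69, -0.05 and 0.92 in X22, against 0.31, 0.77 and 2.22 in X35, a difference of -0.82 ± 0.20 (SE, adjusted p = 0.0145). GILT had -1.01, 0.00 and 1.21 in X22, against 0.16, 0.97 and 1.54 in X35, a difference of -0.82 ± 0.25 (SE, adjusted p = 0.0379). Without 1 juvenile the call was lost in 0 of 20 fits for the gamma chain and in 11 of 20 for GILT. In both, the X35 juveniles were all above the pool while the X22 juveniles lay on both sides of it.

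All 7 chemokines had lower means in X22, and 2 of 7 were called. The ccl20 precursor had -2.47, -1.06 and -0.46 in X22, against -1.0, 0.17 and 0.88 in X35. Cy5 was above the limit on 0 of 10 X22 and 5 of 10 X35 arrays, and the signal was at least 2.11-fold lower in X22 (adjusted p = 0.0108). The other ccl20 probe, ccl20-like (C095R021), was above the limit on all 20 of these arrays and differed by -0.40 ± 0.17, which was not called (SE, adjusted p = 0.118). The ccl19 precursor, in mammals a chemokine of lymphoid tissue, was at least 1.73-fold lower in X22 (adjusted p = 0.0216), with 1 of 10 X35 arrays above the limit.

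Complement and immunoglobulin members were lower in X22 on average at 9 of 9, of which 3 were called. These 3 calls were lost in 13 (C4-1, C232R083), 11 (factor D) and 13 (light chain C123R009) of the 20 fits without 1 juvenile. The C4-1 probe C232R083 had -0.90, 0.18 and 1.31 in X22, against -0.21, 1.15 and 1.66 in X35. The difference was -0.83 ± 0.25 (SE, adjusted p = 0.0394), with Cy5 above the limit on 2 of 10 X22 and 8 of 10 X35 arrays. The C4-1 probe C081R081 differed by -0.61 and the C4-like probe by -0.17, and neither was called (adjusted p = 0.067 and 0.50). Factor D had -0.77, -0.38 and 1.16 in X22, against 0.12, 0.41 and 1.45 in X35, a difference of -0.74 ± 0.22 (SE, adjusted p = 0.0394). The highest X22 juvenile was an unenriched one, and 7 of the other 9 X22 juveniles were below the lowest X35 one. The immunoglobulin light chain C123R009 differed by -0.99 ± 0.31 (SE, adjusted p = 0.043), with Cy5 above the limit on 2 of 10 X22 and 4 of 10 X35 arrays. The light chain C068R013 differed by -0.20 and the mu heavy chain by -0.50, and neither was called (adjusted p = 0.51 and 0.26).

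Among cytokine signalling genes the directions were mixed. The interleukin-1 receptor-associated kinase 3 probe (C241R069), in mammals an inhibitor of Toll-like and interleukin-1 receptor signalling, had -0.26, 0.29 and 0.48 in X22, against 0.32, 0.65 and 0.94 in X35. The difference was -0.40 ± 0.11 (SE, adjusted p = 0.0238). Interleukin-13 receptor alpha 2-like was higher in X22, with -0.27, 0.38 and 1.20, against -0.96, -0.36 and 0.57 in X35. The difference was 0.68 ± 0.19 (SE, adjusted p = 0.0265), with overlap between the families. Cy5 was above the limit on 10 of 10 X22 and 4 of 10 X35 arrays. The transcription factor TAL2, which matched only through the name T-cell acute lymphocytic leukemia protein 2, was also higher in X22, by 0.78 ± 0.25 (SE, adjusted p = 0.0488), and lost its call in 14 of 20 fits without 1 juvenile. Interleukin-13 receptor alpha 2-like lost it in 4 and IRAK3 in 3.

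The third higher probe in X22, galectin-8-like, lay in 2 ranges within X35. Its values were 0.69, 1.16, -5.02, -5.17 and -3.87 in enriched X35 juveniles and 0.64, 0.99, -3.46, -2.99 and -4.57 in unenriched ones, against 0.01 to 1.63 in the 10 X22 juveniles. The difference between the families was 3.17 ± 0.82 (SE, adjusted p = 0.0209), and 4 of 10 X35 juveniles were within the X22 range. Interleukin-4 receptor alpha was low in the same 6 X35 juveniles, with 0.98, 0.81, -0.55, -0.17 and -0.95 in enriched and 0.59, 0.69, -1.41, -0.98 and -1.79 in unenriched X35 juveniles. The ccl20 precursor had its highest X35 values in those juveniles, with -0.74, -0.75, 0.52, 0.31 and 0.03 in enriched and -1.0, -0.44, 0.88, 0.62 and 0.48 in unenriched X35 juveniles. These 6 juveniles are replicates 3, 4 and 5 of both environments. Their arrays lay on slides 6, 7 and 8, and slides 6 and 7 also held the other 4. Cy5 for galectin-8-like was above the limit on 3 of 10 X35 arrays, all among the other 4, and 2 of the low values were imputed, so the low values have only a bound.

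Other immune probes that the study's lists name and that are not members were also counted. Of 45 such probes 16 were called between X22 and X35, against 11.4% of all probes, with 14 lower and 2 higher in X22, against 4.76% and 6.67% of all probes, and the median difference was -0.35. Perforin-1-like (C025R167), a pore-forming protein of cytotoxic cells, differed by -1.61 (adjusted p = 0.00107) and the class II alpha chain (C023R031) by -1.10 (adjusted p = 0.0137). Of the 9 macrophage and granulocyte probes 6 were called lower and 1 higher. The leukocyte common antigen CD45-like (C013R156) differed by -0.40 and was not called (adjusted p = 0.117). The 2 other B-cell and immunoglobulin probes averaged 0.20 ± 0.11 in X22 and -0.44 ± 0.44 in X35 (SD, n = 10 each). The 2 complement regulator probes averaged 0.64 ± 0.72 in X22 and 0.52 ± 0.21 in X35 (SD, n = 10 each). Both means were higher in X22, while those of the remaining kinds of immune probe were lower. These lists were chosen by the same environment contrasts as the members.

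Markers of other tissues also differed between X22 and X35. Of 4 eye lens probes 2 were called lower in X22, with a median difference of -0.66 and a mean per juvenile of -0.64 to 0.54 in X22 and -0.09 to 0.86 in X35. Of 9 heart muscle probes 0 were called, 7 had a lower mean in X22 and the median difference was -0.42. Of 7 neuronal probes 1 was called lower, and of 3 red blood cell probes 0 were called. The part of tissue proportions in the family differences was not tested. On slide 8, which held 1 X22 and 2 X35 juveniles, all enriched, the 17 called members had the direction of the families in 17 of 17 cases. These arrays were among those that gave the calls, which favoured this, so nothing is read from that count. On that slide the very large GTPase probe was -0.57 in the X22 juvenile and 1.75 and 2.31 in the X35 juveniles.

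X11, with a wild sire, was set against the mean of X22 and X35, with farmed sires, over both environments. Of 48 members 5 were called in limma, against 14.5% of all probes, 4 higher (6.72% of all probes) and 1 lower in X11 (7.75% of all probes), and 10 had an unadjusted p under 0.05, against 29.7% of all probes. Only 1 family had a wild sire, so the sire and the family cannot be told apart. Interleukin-4 receptor alpha, the signalling chain of the interleukin-4 receptor, had 0.33, 1.04 and 1.82 as lowest, median and highest in X11, against 0.06, 0.49 and 0.97 in X22 and -1.79, -0.36 and 0.98 in X35. It was higher in X11 by 0.97 ± 0.23 (SE, adjusted p = 0.0065), and the X11 juveniles overlapped both other families. The family means were 1.12 in X11, 0.58 in X22 and -0.28 in X35. Cy5 was above the limit on 10 of 10 X11, 8 of 10 X22 and 4 of 10 X35 arrays. The X35 mean includes the low juveniles described above, and a fit without 1 juvenile still holds the others of them. Ccl20-like had 0.28, 0.59 and 0.91 in X11, against -0.58, -0.04 and 1.00 in X22 and -0.22, 0.44 and 0.89 in X35. It was higher in X11 by 0.37 ± 0.12 (SE, adjusted p = 0.0464), but with slide as a fixed term the difference was -0.20, and its call was lost in 22 of 30 fits without 1 juvenile, while that of interleukin-4 receptor alpha was lost in 0. The other 3 called members matched by name outside immune recognition. Interferon-related developmental regulator 2 was higher by 0.32 (adjusted p = 0.0332), the interferon-stimulated exonuclease-like 2 probe (C118R067) by 0.33 (adjusted p = 0.0453), and immunoglobulin superfamily member 10 (C135R061) was lower by -0.42 (adjusted p = 0.0424), with calls lost in 5, 23 and 15 of 30 such fits. With slide as a fixed term 0 of 48 members were called, against 794 of 21117 probes, and nothing is read from that count.

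How the members varied together was described by Pearson's r over the 30 juveniles, on deviations from the mean of each of the 6 groups. These values come from the same arrays and share their normalization and slides, and are a description. Pairs of 2 members had a median r of 0.15, and 9.49% of 1128 pairs were over 0.5. Pairs of a member and another probe had a median of 0.00734, and 3.04% were over 0.5. The 4 T-cell receptor and co-receptor probes had a median r of 0.49 over 6 pairs, with 0.68 between T-cell receptor gamma and CD3 zeta. The highest r of all member pairs was 0.85, between interleukin-4 receptor alpha and galectin-8-like, with 0.08 within X11, 0.41 within X22 and 0.91 within X35. Within X35, galectin-8-like had r of -0.92 with the CD3 zeta chain, -0.91 with the ccl20 precursor and -0.85 with the light chain C123R009. In the same order these were -0.04, -0.58 and -0.45 within X11, and -0.45, -0.62 and -0.12 within X22. Galectin-8-like and these partners were all called between X22 and X35. The X35 values of galectin-8-like lay in the 2 ranges given above, with 2 values imputed. Cy5 was above the limit on 3 of 10 X35 arrays for it and on 4 of 10 for C123R009. The part of these 2 ranges in the r within X35 was not tested. Probes of the same name did not always vary together. The 3 C4 pairs had r of 0.29 to 0.61, whereas the 2 C1q receptor probes had -0.44.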

How the data were processed

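Transcript abundance was measured in whole heads of 30 juveniles on the Agilent 4x44K salmonid microarray. The deposited intensity values are the authors' scanner data (Imagene median spot and background signals, poor spots marked, not normalized). The log2 values are the authors' deposited table of Cy5 over Cy3 for 21117 probes, made with background subtraction, loess within arrays, removal of marked spots and of spots with a dim Cy3 signal, exclusion of probes with many gaps and imputation of the rest. Each column matched its own array best, with a correlation of at least 0.997. Intensities were used for the Cy5 limit, the bounds and the alternatives. Families, environments and replicate numbers came from the sample labels. Gene names came from the study's supplementary lists, whose fold changes were not used, and no probe sequence is printed. Of the 48 members 1 is counted but not reported by name here.

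The members and lists were chosen with earlier results of these data known. Two-sided limma 3.58.1 tests (R 4.3.3) were fitted on all probes, with p-values adjusted after Benjamini-Hochberg and called at an FDR of 5%. The environment test over 2 families had family as a fixed term, X22 and X35 were compared on their 20 arrays, and X11 against the others on all 30. The steps were tested on simulated data. By the rule for named genes, the members described are those of the complement, immunoglobulin, T-cell, chemokine, interferon-induced and antigen presentation roles and any member with an unadjusted p under 0.05 in an independent comparison, and at most 10 probes outside the set. Counting all members listed for X11, with those in the list over all families, was added after values were seen. Members of other roles named in X11 (interleukin receptors, lectins) were added after their values were seen. Alternatives were scanner values without imputation (loess span 0.4, 5 iterations), normexp (offset 50), a Cy5 filter (50% of arrays), array weights, slide, replicate number, all arrays for the spread, tank means, re-implemented SAM (100 permutations, seed 12345) and leaving out each juvenile. Python 3.11.15 with numpy 2.4.6, pandas 2.3.3 and matplotlib 3.10.9, and version 1.17.8 of the R package data.table, did the rest.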

Additional observations from a re-analysis of the deposited data

Results flagged for a closer look

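In 288 groups of 5 juveniles (48 members by 6 groups), 22 held 1 juvenile far from the other 4, which is 7.64%. For independent and normally distributed values about 1 group in 20 would. The members were measured on the same arrays and are not independent, so nothing is read from that difference. Of the juveniles that stood apart 5 were the highest and 17 the lowest of their group, and 7 had Cy5 not above the limit. No value among the 22 was imputed, and none of the members had all juveniles of 2 families moving in opposite directions with the environment. All values are log2 ratios.

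The juveniles that stood apart as the highest of their group were those of T-cell receptor gamma (C200R010) in X22 unenriched replicate 2, at 1.56, interleukin-13 receptor alpha 2-like (C069R075) in X22 enriched replicate 5, at 1.20, selectin E (C102R072) in X22 unenriched replicate 3, at 1.39, LINGO3 (C161R036) in X35 enriched replicate 4, at 1.16, and the guanylate-binding protein 1 probe C158R131 in X11 unenriched replicate 3, at 0.20.

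Among T-cell, chemokine and complement members, the lowest juveniles that stood apart were those of CD4-2 (C102R138) in X35 enriched replicate 1, at 0.31, the ccl25 precursor (C124R054) in X35 unenriched replicate 2, at -0.79, the cxcl14 precursor (C039R021) in X22 unenriched replicate 3, at -0.70, and chemokine CK-1 (C007R139) in X11 unenriched replicate 4, at -0.82. The C4-1 probe C232R083 stood apart in 3 groups, at 0.016 in X22 unenriched replicate 5, at 0.18 in X35 enriched replicate 2 and at -0.21 in X35 unenriched replicate 2.

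Among the other members, the lowest juveniles that stood apart were those of the light chain C068R013 in X22 enriched replicate 1, at -1.59, the guanylate-binding protein 1 probe C216R118 in X35 unenriched replicate 3, at -0.52, IFI44-like (C002R053) in X22 enriched replicate 1, at -0.47, and the very large GTPase probe (C066R111) in X22 unenriched replicate 2, at -3.06. The interleukin-1 receptor accessory protein probe (C071R100) stood apart in X35 unenriched replicate 1, at -0.71, and IRAK3 (C241R069) in X22 unenriched replicate 1, at -0.26. The galectin-related protein B-like probe (C162R064) stood apart in X11 unenriched replicate 2, at -0.85, selectin E in X11 enriched replicate 2, at -0.79, interferon-related developmental regulator 2 (C092R066) in X35 unenriched replicate 5, at 0.10, and LINGO3 in X22 unenriched replicate 3, at 0.41. X22 unenriched replicate 3 held 3 of the 22, more than any other juvenile.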

How the results depend on the processing

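Counts of members called moved most for the family comparisons. Between X22 and X35, 17 members were called (14 lower, 3 higher in X22). With normexp the count was 10 (8 lower), with the Cy5 filter 11 of 35 tested (8 lower), with array weights 26 (22 lower), and with slide as a fixed block 0 (0 lower, 0 higher, the direction kept for 17 of 17), while without imputation 1 was higher. Of the 17, those still called were 15 without imputation, 10 with normexp, all 11 tested with the filter, 16 with weights, 17 with slide as a random block, 16 with the spread of all 30 arrays and 16 with tank means. For X11 against the mean of X22 and X35, 5 were called (4 higher, 1 lower in X11). The count was 9 (3 lower) with weights, and 1 higher and 4 lower with normexp. It was 0 (0 higher, 0 lower) with slide as a fixed block and 0 (0 higher, 0 lower) with tank means. Over all probes, 3056 of 21117 were called in the main fit, 5075 with weights and 2696 of 21216 with normexp. Slide as a fixed block called 794 of 21117 probes and tank means 227. Ccl20-like (C095R021) changed sign there with slide as a fixed block, at -0.20. The interaction called 1 of 8 members tested with the Cy5 filter and 1 of 14 with weights. Over all probes it called 49 of 16718 and 437 of 21117, in the same order. The environment tests in X22, X35 and both together called 0 of the 34 members listed for X11 alone under every alternative run. Over all probes, these alternatives called at most 5 with limma and 22 with SAM. Of all 42 listed for X11, a set added after the data were seen, the same alternatives called 0, except 1 (CD5-like) in X22 with SAM and 1 with the spread of all 30 arrays. The CD5-like probe is also in the study's own list for X22, so its call with SAM repeats that list. Tank means could not be tested within 1 family. With 1 tank per family and environment, the fits on tank means cannot measure the spread between tanks of the same kind. The causes of these changes were not tested.

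Leaving out 1 juvenile at a time, the count between X22 and X35 was 9 to 22, with 8 to 17 lower and 1 to 5 higher. Over all 21117 probes these fits called 1382 to 3607. The member count was 9 without X35 unenriched replicate 3, X35 unenriched replicate 4 or X35 enriched replicate 5. It was 11 without X35 enriched replicate 4. Of the 17 called members, 9 were called in every such fit. For X11 against the others it was 1 to 5, with 1 to 4 higher and 0 to 2 lower, and for the interaction 0 to 1. The members sharing the X11 direction were 18 to 26 of 34 in X22 and X35 together, 13 to 23 in X22 and 18 to 28 in X35.

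The replicate numbers did not pair single juveniles, since at most 1 of 5 juveniles was closest to its own number. Correlations of same-numbered juveniles were -0.12 to 0.02 in X11, -0.09 to 0.11 in X22 and 0.05 to 0.58 in X35. In X35 they were all positive, and the low galectin-8-like values fell on the same replicate numbers in both environments. With the replicate block 17 of 17 members were still called between X22 and X35, where 3155 of 21117 probes were called. In the environment tests it called 0 of 34 members, and 0 to 4 of all probes.

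With 5 juveniles per group and 1 tank each, differences between tanks cannot be told apart from those between environments or families, and 6 members were above the Cy5 limit on 3 arrays or fewer.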
